A study of Mus musculus with 24 samples.

Results

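Genes that mark dendritic cells, monocytes and macrophages were followed, 10 in all, in RNA from CD45+ (hematopoietic) cells of the mouse ileum: Xcr1, Clec9a, Batf3, Irf8, Zbtb46, Flt3, Ly6c2, Adgre1, Csf1r and C1qa. They are 10 of 39056 genes of the count table. The rule lists them by name, and all 10 had enough counts to be tested. The 24 libraries came from C57BL/6 mice of 4 genotypes, with 3 CD45+ and 3 CD45- libraries each: Hoil1+/+ Il4ra flox/flox, Hoil1+/+ Il4ra flox/flox with Vil1-cre, Hoil1-/- Il4ra flox/flox, and Hoil1-/- Il4ra flox/flox with Vil1-cre. The flox/flox groups are called f/f here, and those with Vil1-cre ΔIEC. All groups carried the floxed Il4ra alleles, and Vil1-cre acts in intestinal epithelial cells, so the Il4ra gene of CD45+ cells was not its target. The Hoil1-/- mice carried an Rbck1 allele from which a short N-terminal part of HOIL1 is still made at a low level, so they are partly deficient. In the study, co-housed Hoil1+/+ littermates served as controls, and mice of both sexes from multiple litters were used. The mice were untreated and 9.0 to 10.3 weeks old. Live cells were sorted from the lamina propria with part of the epithelial fraction, after Peyer's patches had been removed.

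Classical dendritic cells arise from precursors that carry FLT3, the receptor for the FLT3 ligand, and depend on it for their numbers. The type 1 subset (cDC1) cross-presents antigen to CD8 T cells, carries the chemokine receptor XCR1 and the dead-cell receptor CLEC9A, and needs the transcription factors IRF8 and BATF3. Macrophages of the gut wall are renewed largely from blood monocytes, which lose LY6C as they mature and gain F4/80 (Adgre1) and complement C1q (C1qa). Csf1r encodes the CSF1 receptor. Several of these genes are not exclusive: Irf8 is also used by B cells and plasmacytoid dendritic cells, Batf3 by T cells, Ly6c2 by T and plasma cells, and Zbtb46 by endothelium.

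Depth was 14938629 to 76807504 counts in the CD45+ libraries and 6028275 to 68345191 in the CD45- libraries. Values are CPM, counts relative to library size, scaled by TMM, a correction for library composition, and ± gives the standard error of a fit. For the CPM values TMM was computed within each fraction, so those of CD45+ and CD45- libraries are not on a common scale. The test between fractions scaled its libraries together. The study's sample list leaves out 2 CD45+ libraries, Hoil1-/- f/f replicate 1 and Hoil1-/- ΔIEC replicate 3, which the study removed as outliers of a principal component analysis, so tests were run on the 10 CD45+ libraries of that list and again on all 12. These 2 libraries had the fewest genes detected of the 12 (13534 and 12847, against 14690 to 17109 in the others), and the former had the highest share of mitochondrial counts (8.96%, against at most 5.14% in the others). With 10 libraries each Hoil1-/- group has 2. Rbck1, the gene that encodes HOIL1, was at 79.5 to 137 CPM in the 6 Hoil1+/+ and 4.72 to 13.9 CPM in the 6 Hoil1-/- CD45+ libraries. Ptprc, which encodes CD45, was at 228 to 664 CPM in CD45+ and 0 to 17.9 CPM in CD45- libraries.

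The sort itself asked which of the 10 genes belong to hematopoietic cells. By edgeR's quasi-likelihood test with Benjamini-Hochberg adjustment over the 21 libraries of the sample list, all 10 members differed between CD45+ and CD45- cells (largest adjusted p = 0.0010), where 49.6% of the 18778 genes tested did. Of these, 9 were higher in CD45+ cells, as were 24.5% of all genes, and Zbtb46 was lower, as were 25.1%. Both cDC1 surface receptors were close to exclusive. Xcr1 ran from 6.34 to 38.3 CPM in CD45+ libraries (median 14) and had no count in 11 of 12 CD45- libraries. Clec9a ran from 3.48 to 17.5 CPM (median 9.43) and was at 0 counts throughout the 12 CD45- libraries. Its lowest CD45+ value was at least 7.04-fold above 3 counts in the shallowest CD45- library, which is the smallest level taken as shown. Flt3 ran from 5.69 to 45.7 CPM (median 15.8) and had no count in 11 of 12 CD45- libraries.

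The macrophage genes were separated just as widely. Csf1r ran from 627 to 1409 CPM in CD45+ cells against 0 to 8.63 CPM in CD45- cells, a log2 difference of 8.70 ± 0.70 (SE). C1qa, a chain of the C1q complement protein, ran from 693 to 3740 CPM against 1.63 to 36.3 CPM (log2 difference 8.68 ± 0.38). Adgre1 ran from 158 to 544 CPM and had no count in 8 of 12 CD45- libraries. Batf3 ran from 18.9 to 74.1 CPM against 0 to 2.27 CPM (log2 difference 7.02 ± 0.65).

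Irf8 and Zbtb46 were not confined to CD45+ cells. Irf8 was at 180 to 477 CPM in CD45+ and 35.8 to 96.1 CPM in CD45- libraries, so that the fractions did not overlap but differed by 2.36 ± 0.21 on the log2 scale, less than for any other member that was higher in CD45+ cells. Zbtb46, a zinc finger factor used as a marker of classical dendritic cells, was at 4.16 to 14 CPM in CD45+ and 5.40 to 64.2 CPM in CD45- libraries. It was lower in CD45+ cells by edgeR (log2 difference -1.47 ± 0.32, adjusted p = 0.0010), and the lowest CD45- library lay within the CD45+ range. Among the other genes of the myeloid lists, 10 of 11 further macrophage and 6 of 9 monocyte genes were higher in CD45+ cells past the threshold. So were 6 of 7 cDC2 genes and 5 of 6 cDC1 genes, where 24.5% of all genes tested were. Lower past it were 2 of the 9 monocyte and 1 of the 7 cDC2 genes, and 25.1% of all genes. The median log2 difference was 8.61 for the macrophage genes against 0.03 over all genes tested.

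**Figure D1:**
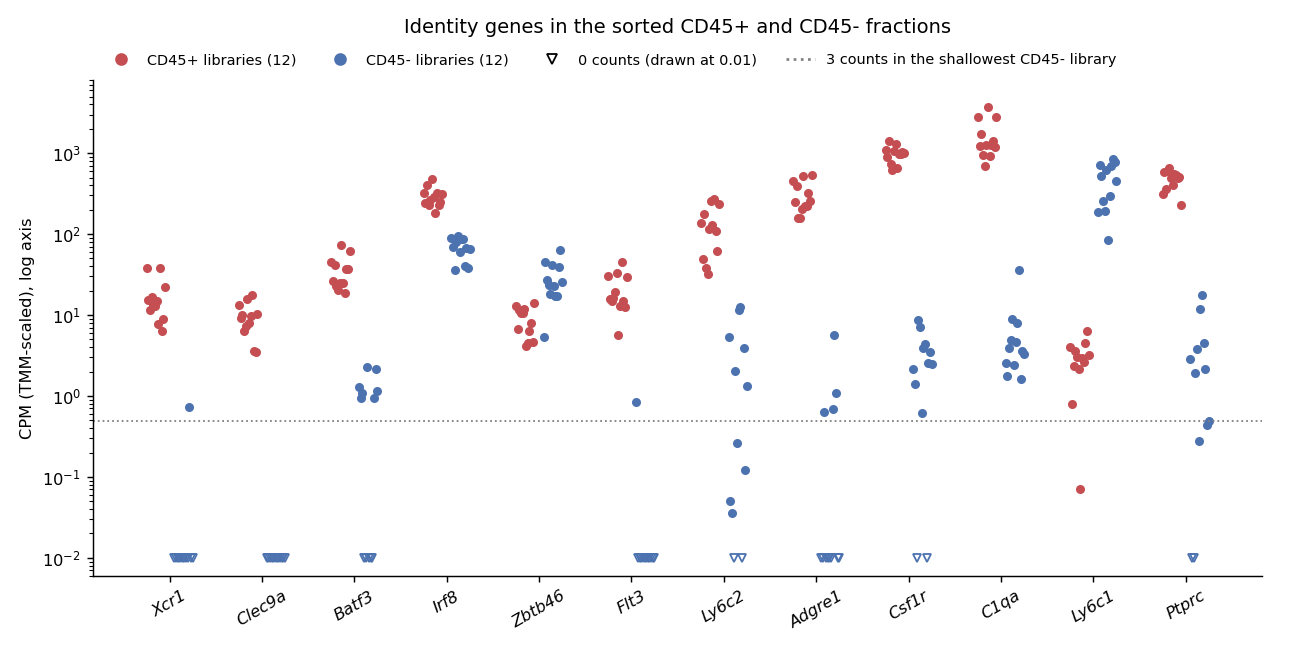
Level of each identity gene, of Ly6c1 and of Ptprc in the 12 CD45+ (red) and 12 CD45- (blue) libraries, in TMM-scaled CPM on a log axis; open triangles are libraries with 0 counts, drawn at 0.01, and the dotted line is 3 counts in the shallowest CD45- library. Clec9a is at 0 counts throughout the CD45- libraries, Zbtb46 and Ly6c1 lie higher in CD45- cells, and Irf8 is measured in both fractions.

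Ly6c2 and its neighbour Ly6c1 split by fraction in opposite directions. Both encode LY6C, a surface protein of the Ly6 family that marks inflammatory monocytes, and lie on chromosome 15 (Ly6c2 at 75108158 to 75111970, Ly6c1 at 75044018 to 75048830, GRCm38). Ly6c2 was at 32.4 to 274 CPM in CD45+ (median 121) and 0 to 12.5 CPM in CD45- libraries (log2 difference 6.02 ± 0.87). Ly6c1, which is known from endothelium, was at 0.070 to 6.32 CPM in CD45+ and 83.5 to 840 CPM in CD45- libraries (log2 difference -6.56 ± 0.46). The fractions did not overlap for either gene. The 2 copies are so alike that the counting could have split or dropped some of their reads, so their absolute levels are uncertain. The 250 bases before each start are shown because the genes differ in which fraction holds them. RefSeq has 2 starts for each gene, and the most alike pair of windows was taken. In a global alignment 216 bases of each window were paired, of which 164 (75.9%) were identical. Capitals mark the bases that differ from the other gene or have no partner.
Ly6c1, chr15:75048838-75049087, minus strand: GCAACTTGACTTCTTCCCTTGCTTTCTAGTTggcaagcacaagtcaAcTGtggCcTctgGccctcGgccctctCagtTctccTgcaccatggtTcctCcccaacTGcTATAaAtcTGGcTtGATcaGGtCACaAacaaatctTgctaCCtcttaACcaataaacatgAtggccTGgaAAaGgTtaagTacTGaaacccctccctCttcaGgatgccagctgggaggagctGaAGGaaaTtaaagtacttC
Ly6c2, chr15:75111972-75112221, minus strand: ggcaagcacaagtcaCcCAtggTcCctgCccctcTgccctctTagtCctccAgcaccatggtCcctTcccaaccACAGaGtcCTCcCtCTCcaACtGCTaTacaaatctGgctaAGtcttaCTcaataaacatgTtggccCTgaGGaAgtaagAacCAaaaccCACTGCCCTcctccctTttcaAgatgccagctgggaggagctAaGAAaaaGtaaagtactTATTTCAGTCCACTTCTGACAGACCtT

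Within CD45+ cells the median level of the members, set per kilobase of exon, ran from 1.09 to 1208 CPM per kb. C1qa had the highest median, at 1208 CPM per kb (667 to 3596), followed by Csf1r at 174 (109 to 244) and Adgre1 at 77.7 (48.7 to 168). The ranges of Csf1r and Adgre1 overlapped, and C1qa lay above both in every library. Ly6c2 had a median of 44.3, Irf8 of 39.0 and Batf3 of 19.8 CPM per kb. Xcr1 (3.14), Clec9a (2.86), Flt3 (2.56) and Zbtb46 (1.09) were lowest, and the first 3 were not separated, with ranges from 0.922 to 8.60. In GRCm38 coordinates Xcr1 lies at 9:123852315-123862029, Clec9a at 6:129408862-129424763, Batf3 at 1:191097847-191108945, Irf8 at 8:120736358-120756694, Zbtb46 at 2:181387762-181459426, Flt3 at 5:147330741-147400489, Adgre1 at 17:57358691-57483527, Csf1r at 18:61100598-61132149 and C1qa at 4:136895917-136898803. Clec9a, Irf8, Zbtb46, Flt3 and Csf1r overlap other annotated genes, so their levels depend on how shared reads were counted.

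The first genotype question was whether loss of HOIL1 changed these genes when both Il4ra genotypes were averaged. No member passed at an adjusted p under 0.05 with 10 libraries, where 0.00587% of the 17029 genes tested did (only Rbck1). By unadjusted p, 1 of 10 members lay under 0.05, as did 5.85% of all genes. That member was Zbtb46, at 12.9, 6.79 and 11.5 CPM in Hoil1+/+ f/f, 10.6, 10.5 and 11.9 CPM in Hoil1+/+ ΔIEC, 4.16, 4.48 and 6.44 CPM in Hoil1-/- f/f and 8.03, 4.68 and 14 CPM in Hoil1-/- ΔIEC libraries, given in the order of the replicates, so that the first Hoil1-/- f/f and the last Hoil1-/- ΔIEC value are of the libraries outside the list. All 3 Hoil1-/- f/f values lay under all 6 Hoil1+/+ values, but the highest value of all was also from a Hoil1-/- library. Its log2 difference was -0.87 ± 0.29 with 10 libraries (unadjusted p = 0.0126, adjusted p = 0.783 by edgeR) and -0.68 ± 0.32 with 12.

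Ly6c2 was the member with the largest value in the other direction. It was at 138, 49.0 and 175 CPM in Hoil1+/+ f/f, 38.2, 32.4 and 115 CPM in Hoil1+/+ ΔIEC, 257, 128 and 274 CPM in Hoil1-/- f/f, and 110, 61.7 and 235 CPM in Hoil1-/- ΔIEC libraries. The 3 highest values were all from Hoil1-/- mice and the 3 lowest all from Hoil1+/+ mice, with overlap between. The log2 difference was 0.60 ± 0.46 with 10 libraries and 1.00 ± 0.45 with 12 (edgeR, unadjusted p = 0.0455, adjusted p = 1.00); with 12 libraries it was the 1 member of 10 under an unadjusted 0.05, where 4.14% of genes were. In bulk RNA, fewer cells of a type and less RNA per cell cannot be told apart, here and below.

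The other 8 members had log2 differences from -0.59 (Clec9a) to -0.01 (Adgre1) with 10 libraries. With 12 libraries 4 of them, Batf3 (0.52), Adgre1 (0.46), C1qa (0.46) and Csf1r (0.05), lay on the other side of 0. Both libraries outside the sample list are from Hoil1-/- mice and are high for Batf3, Adgre1 and C1qa, and the part that their lower number of genes detected has in this was not tested. Batf3 was at 74.1 and 61.2 CPM in these libraries against 18.9 to 37.3 CPM in the other 4 Hoil1-/- libraries. C1qa was at 3740 and 2808 CPM there against 916 to 1417 CPM.

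**Figure D2:**
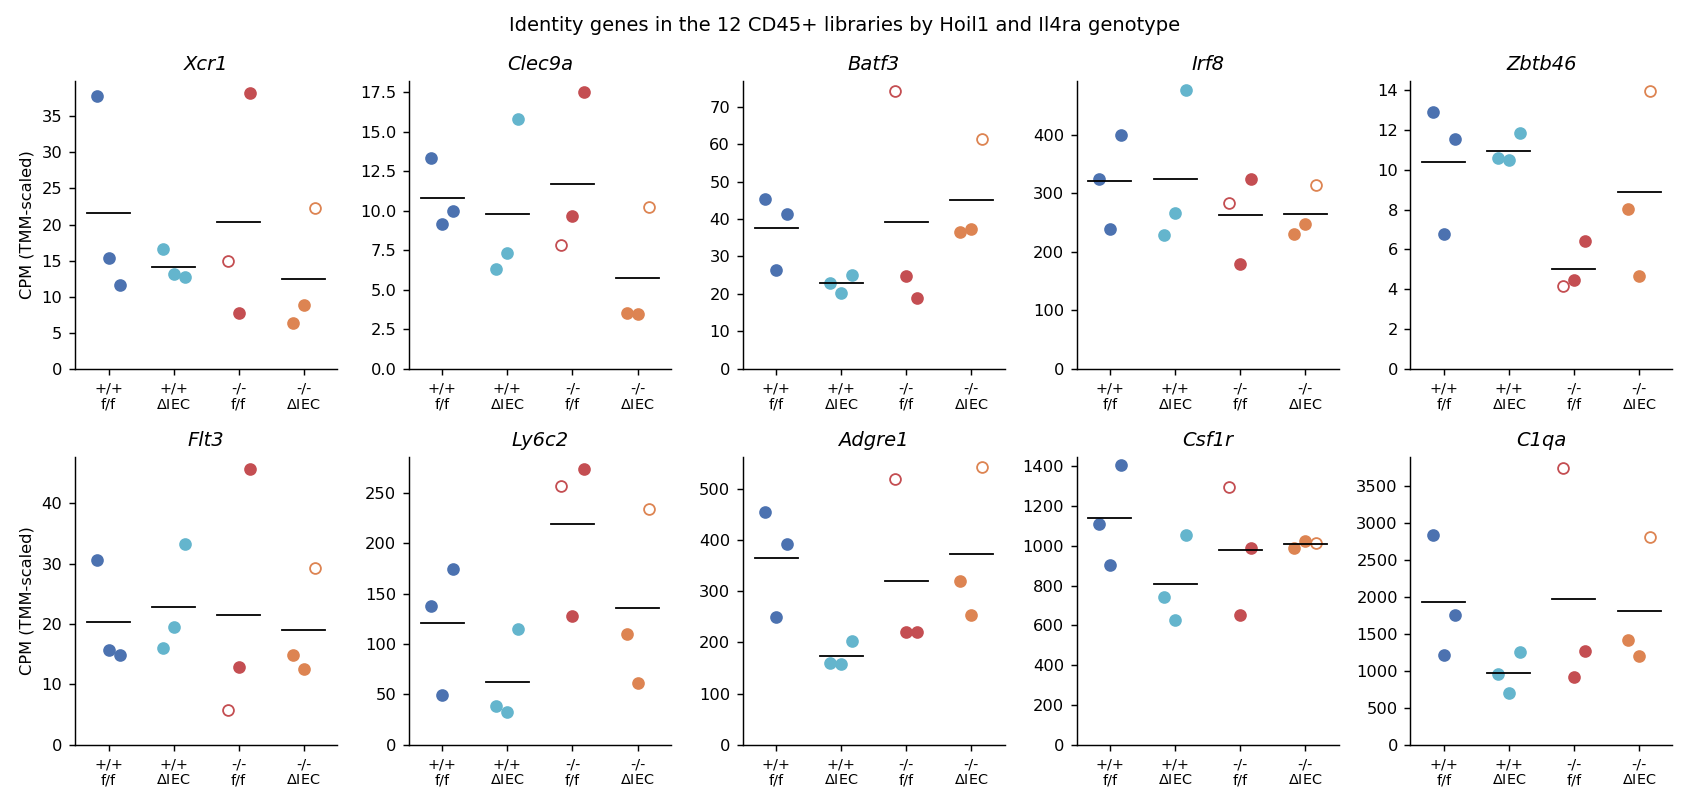
CPM of each identity gene in the 12 CD45+ libraries, by Hoil1 (+/+ or -/-) and Il4ra (f/f or ΔIEC) genotype; each point is a library, open points are the 2 libraries outside the study's sample list, and the bar is the mean of all 3. The open points are the highest Hoil1-/- values of Batf3, Adgre1 and C1qa.

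Within f/f mice, 3 of 10 members lay under an unadjusted p of 0.05 with 10 libraries, where 5.27% of genes did, and none passed adjustment, as for every gene tested (0.0%; 898 genes at the unadjusted level). All 3 were lower in Hoil1-/- libraries. Batf3 was at 24.7 and 18.9 CPM in Hoil1-/- against 45.3, 26.4 and 41.3 CPM in Hoil1+/+ f/f libraries (log2 difference -0.78 ± 0.27). Adgre1 was at 221 and 221 CPM against 455, 250 and 394 CPM (-0.72 ± 0.29). Zbtb46 made the third (-0.93 ± 0.40). With the left-out Hoil1-/- f/f library, at 74.1 CPM for Batf3 and 519 CPM for Adgre1, the differences became 0.06 ± 0.45 and -0.19 ± 0.41, and Zbtb46 alone lay under an unadjusted 0.05 (-1.05 ± 0.46, 3.13% of genes).

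Within ΔIEC mice the same 2 genes lay on the other side. With 10 libraries 3 of 10 members lay under an unadjusted 0.05 (6.08% of genes) and none passed adjustment (0.0%; 1035 genes at the unadjusted level). Batf3 was at 36.7 and 37.3 CPM in Hoil1-/- against 23, 20.4 and 25 CPM in Hoil1+/+ ΔIEC libraries (log2 difference 0.67 ± 0.26). Adgre1 was at 319 and 254 CPM against 159, 158 and 202 CPM (0.70 ± 0.28). Clec9a was lower, at 3.55 and 3.48 CPM against 6.32, 7.32 and 15.8 CPM (-1.51 ± 0.48, unadjusted p = 0.0105, adjusted p = 0.736 by edgeR). The left-out Hoil1-/- ΔIEC library was at 10.2 CPM for Clec9a, within the Hoil1+/+ range, and with it the difference was -0.77 ± 0.55. Adgre1 was at 1.11 ± 0.41 with 12 libraries and was then the 1 member under an unadjusted 0.05 (4.48% of genes).

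The test of the difference between both, the interaction of Hoil1 and Il4ra, put 4 of 10 members under an unadjusted 0.05 with 10 libraries, against 7.01% of all genes, and none under an adjusted 0.05 (0.0%; 1193 genes at the unadjusted level). Batf3 (log2 1.45 ± 0.38), Adgre1 (1.42 ± 0.41) and C1qa (1.23 ± 0.55) had the higher Hoil1 difference in ΔIEC mice, and Clec9a the lower (-1.84 ± 0.64). Their adjusted p-values by edgeR ran from 0.591 for Batf3 to 0.701 for C1qa. For 2 of 10 members, Batf3 and Adgre1, the Hoil1-/- libraries of the sample list lay below all Hoil1+/+ libraries in f/f and above all of them in ΔIEC mice; 2.72% of genes tested separated in opposite directions in this way. With 12 libraries Adgre1 (1.30 ± 0.58) was the 1 member under an unadjusted 0.05, where 4.38% of genes were, and Batf3 was at 0.93 ± 0.64.

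Within f/f mice all 14 genes of the macrophage list were below 0 with 10 libraries (median -0.68 against 0.00 over all genes), and within ΔIEC mice 13 of 14 were above 0 (median 0.42 against -0.06). With 12 libraries 10 of 14 were below 0 within f/f mice (median -0.13 against 0.00), where the left-out library had the highest macrophage sum of all (29927 CPM, against 13657 to 23007 CPM in Hoil1+/+ f/f libraries), and 14 of 14 above 0 within ΔIEC mice (median 0.81 against -0.02). All 14 had an interaction above 0 with 10 libraries, with a median of 1.25 against -0.11 over all genes, and 8 of 14 lay under an unadjusted 0.05, where 7.01% of all genes did in either direction, namely the members Adgre1 and C1qa, the other C1q chains C1qb (1.27 ± 0.43) and C1qc (1.28 ± 0.49), the scavenger receptor Cd163 (2.65 ± 0.59), the mannose receptor Mrc1 (1.41 ± 0.39), the apoptotic-cell receptor Mertk (1.84 ± 0.71) and the Fc receptor Fcgr1 (1.31 ± 0.50). None passed adjustment. Apoe, the most abundant of the list, was at 0.84 ± 0.48. With 12 libraries all 14 were again above 0, with a median of 0.74 against -0.04 over all genes, and 1 of 14 lay under an unadjusted 0.05, against 4.38% of genes.

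Lymphocyte markers lay on the other side of the same contrast. With 10 libraries all 7 B cell genes had an interaction below 0 (median -3.38, 5 of 7 under an unadjusted 0.05). So had all 7 T cell genes (median -1.39, none of 7) and all 5 NK cell genes (median -1.71, 2 of 5). Over all genes the median interaction was -0.11, 7.01% lay under an unadjusted 0.05 and none passed adjustment. Within f/f mice all 7 B cell genes were above 0 in Hoil1-/- libraries (median 2.70, 4 of 7 under an unadjusted 0.05, against 5.27% of all genes). Within ΔIEC mice all 7 T cell genes were below 0 (median -1.40, none of 7, against 6.08% of all genes). No gene passed adjustment in either. With 12 libraries the interaction medians were -3.32 for B cells, -1.34 for T cells and -1.97 for NK cells, again with all genes of the 3 lists below 0. Of the 6 mast cell genes 4 had an interaction above 0 with 10 libraries (median 2.13, 3 of 6 under an unadjusted 0.05), and of the 7 plasma cell genes 6 had (median 0.15, none of 7). The B cell genes summed to 228 to 627 CPM in Hoil1+/+ f/f, 427 to 1364 CPM in Hoil1+/+ ΔIEC, 233 to 740 CPM in Hoil1-/- f/f and 415 to 681 CPM in Hoil1-/- ΔIEC libraries. The part of cells of these 5 kinds in the values of the macrophage genes was not tested.

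Among dendritic cell lists the cDC2 genes lay on the same side as the macrophage genes, and the cDC1 genes on the other. All 7 cDC2 genes had an interaction above 0 (median 0.71), and the lectin Mgl2 (1.43 ± 0.49), the inhibitory receptor Sirpa (1.38 ± 0.49) and the lectin Clec10a (1.98 ± 0.45) lay under an unadjusted 0.05, 3 of 7 against 7.01% of genes. With 12 libraries all 7 were again above 0 (median 1.05) and none lay under an unadjusted 0.05 (4.38% of genes did). Irf4, the transcription factor of this subset, was at 0.02 ± 0.52 with 10. The part of macrophage RNA in the values of the cDC2 genes was not tested. Of the 10 cDC1 genes 8 were below 0 (median -1.04), the exceptions being Batf3 and Naaa (0.01 ± 0.63). Wdfy4, needed for cross-presentation, was at -1.05 ± 0.62, and the integrin Itgae, which intraepithelial T cells also carry, at -1.80 ± 1.46. With 12 libraries the cDC1 median was -0.09, and 7 of 10 were below 0. For the averaged Hoil1 effect all 10 cDC1 genes were below 0 with 10 libraries (median -0.40 against -0.05 over all genes) and 8 of 10 with 12 (median -0.15).

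**Figure D3:**
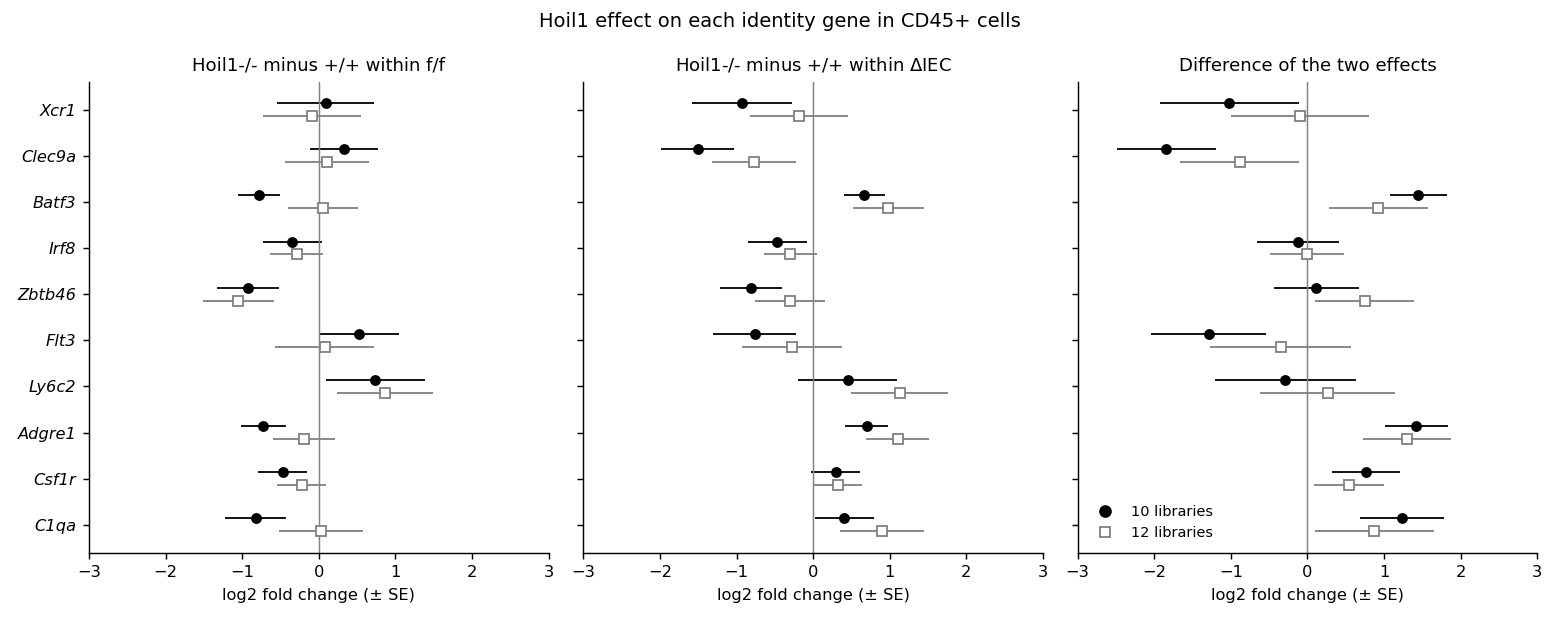
Log2 fold change (± SE) of each identity gene between Hoil1-/- and Hoil1+/+ CD45+ libraries within f/f mice (left), within ΔIEC mice (middle) and the difference between both (right), from edgeR with the 10 libraries of the sample list (filled circles) and with all 12 (open squares). Batf3, Adgre1 and C1qa lie left of 0 in f/f and right of 0 in ΔIEC mice with 10 libraries, and move right in f/f mice with 12.

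Epithelial deletion of Il4ra, averaged over the Hoil1 genotypes, put no member past an adjusted 0.05 (0.00587% of genes, 1 gene, were) and 3 of 10 under an unadjusted 0.05, where 10.6% of genes were. All 3 were lower in ΔIEC mice: Clec9a (log2 difference -1.02 ± 0.32), Xcr1 (-1.07 ± 0.46) and Ly6c2 (-1.06 ± 0.47), with adjusted p-values by edgeR from 0.366 to 0.463. In the same comparison 7 of 7 plasma cell genes were below 0 and 6 of 7 were under an unadjusted 0.05 (median -1.03), and 5 of 7 B cell genes were above 0 and under it (median 1.69). With 12 libraries the medians were -0.56 (1 of 7) and 1.83 (4 of 7), and the part of these cells in the values of Ly6c2 was not tested. Xcr1 was at 37.8, 15.4 and 11.6 CPM in Hoil1+/+ f/f, 16.6, 13.1 and 12.8 CPM in Hoil1+/+ ΔIEC, 14.9, 7.73 and 38.3 CPM in Hoil1-/- f/f and 6.34, 8.87 and 22.3 CPM in Hoil1-/- ΔIEC libraries. One library near 38 CPM in each f/f group stood above the rest, and the other f/f libraries lay among the ΔIEC ones. With 12 libraries none of the 10 lay under an unadjusted 0.05 (5.49% of genes), and the 3 differences were -0.58 for Clec9a, -0.65 for Xcr1 and -0.83 for Ly6c2. Of the 10 cDC1 genes, 9 were lower in ΔIEC mice with 10 libraries (median -0.68 against -0.01 over all genes), among them the lysosomal enzyme Naaa (-0.71 ± 0.32).

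Ligands and chemokines that act on these cells came next. Of 7 growth factor and chemokine genes none passed adjustment in a Hoil1, Il4ra or interaction test. Ccl2, which draws monocytes, had an interaction of 2.60 ± 1.08, Csf1, the ligand of CSF1R, of 2.48 ± 1.62, and Xcl1, the ligand of XCR1, of -0.40 ± 0.73. In the mature dendritic cell list Ccr7, which guides migration to lymph nodes, differed between ΔIEC and f/f mice by 1.90 ± 0.45 (adjusted p = 0.24 by edgeR) and is also carried by naive lymphocytes, and Apol7c was at -0.58 ± 0.21. Among monocyte genes Ccr2, the receptor for CCL2, was at -0.86 ± 0.39 and Plac8 at -0.33 ± 0.23 for the same comparison. In the plasmacytoid list Tcf4, its defining factor, was at -0.19 ± 0.26 and Ccr9 at -0.32 ± 0.35. In the list shared by classical dendritic cells Itgax (CD11c) was at -0.32 ± 0.22 and Kmo at -0.29 ± 0.20.

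The labels give an age for each library, and CD45+ libraries fell into 2 ranges of age, 5 from mice of 9.0 to 9.1 weeks and 7 from mice of 9.4 to 9.9 weeks. The younger range held 3 Hoil1+/+ libraries and 2 Hoil1-/- libraries, and these 2 are the libraries outside the sample list. In the 10 libraries of the list, every Hoil1-/- mouse was thus of the older range, against 3 of 6 Hoil1+/+ mice. An age term fitted to these 10 libraries therefore came from the Hoil1+/+ libraries alone. The split by age was made after the values were seen. The sources used here give neither the litter nor the day of sort of a library, and age cannot be told apart from either.

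The levels of macrophage genes differed between the age ranges. C1qa ran from 1252 to 3740 CPM (median 2808) in the 5 younger and 693 to 1417 CPM (median 1196) in the 7 older libraries. Adgre1 ran from 202 to 544 CPM (median 455) against 158 to 319 CPM (median 221). Ly6c2 ran from 115 to 257 CPM (median 175) against 32.4 to 274 CPM (median 61.7). All 10 members had a lower fitted level in older mice with 12 libraries, with age range and the 4 genotypes in one edgeR model. Their median log2 difference was -0.60, against 0.14 over all genes tested. Adgre1 (-0.83 ± 0.17, adjusted p = 0.0348), C1qa (-1.12 ± 0.23, adjusted p = 0.0376) and Ly6c2 (-1.33 ± 0.28, adjusted p = 0.0415) passed the threshold, where 2.27% of the 16060 genes tested did. With the 10 libraries of the list no member passed (1.04% of genes did), the nearest being Ly6c2 (-1.68 ± 0.33, adjusted p = 0.0572). Batf3 was next with 12 libraries (-0.88 ± 0.22, adjusted p = 0.0618), while Xcr1 (-0.42 ± 0.50) and Flt3 (-0.31 ± 0.53) were far from it.

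Markers of other cells also differed by age. The summed level of 7 T cell genes was 412 to 743 CPM in younger and 736 to 2572 CPM in older mice, and Cd3e, a chain of the CD3 complex, was higher in the older by 2.08 ± 0.37 (adjusted p = 0.0238 by edgeR with 12 libraries). The highest T cell sums, 2076 to 2572 CPM, were those of the 3 older Hoil1+/+ libraries, 1 of f/f and 2 of ΔIEC mice, while the 4 older Hoil1-/- libraries had 736 to 1143 CPM. In the same order, 7 epithelial genes summed to 258 to 410 CPM and to 50.4 to 297 CPM, and in the 5 younger libraries to 56.7 to 260 CPM. The sum of 7 plasma cell genes was 13800 to 43806 CPM (median 37328) in younger and 7886 to 30617 CPM (median 14350) in older mice. The sum of 6 mast cell genes was 183 to 1476 CPM (median 1118) against 180 to 958 CPM (median 451), and was 180 to 204 CPM in the 3 Hoil1+/+ ΔIEC libraries. The sum of 5 NK cell genes was 155 to 938 CPM (median 482) against 441 to 4919 CPM (median 1576). The ranges overlapped for all 3 lists. Their part in the values of the members was not tested.

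With the 10 libraries of the list, age in the model turned the averaged Hoil1 values of several members to the other side. Batf3 went from -0.05 to 0.19, Adgre1 from -0.01 to 0.29 and C1qa from -0.21 to 0.21. With 12 libraries these genes lay above 0 without age as well (0.52, 0.46 and 0.46). Age and 12 libraries together gave Ly6c2 1.36 ± 0.28, Adgre1 0.52 ± 0.16, Batf3 0.55 ± 0.21 and C1qa 0.52 ± 0.22. Thus 4 of 10 members lay under an unadjusted 0.05, where 7.32% of genes did. The smallest adjusted p by edgeR was 0.271, for Ly6c2. With 10 libraries Ly6c2 alone lay under an unadjusted 0.05 (1.65 ± 0.31, adjusted p = 0.122, 6.92% of genes). Ly6c2 was higher in Hoil1-/- than in Hoil1+/+ libraries in both age ranges, with no overlap in either: 235 and 257 CPM against 115 to 175 CPM in younger mice, and 61.7 to 274 CPM against 32.4 to 49.0 CPM in older mice. It was the 1 member of 10 with this pattern, which 1.24% of the 17029 genes showed in one direction or the other. Batf3 and Adgre1 were higher in younger Hoil1-/- mice without overlap (61.2 and 74.1 against 25 to 45.3 CPM, and 519 and 544 against 202 to 455 CPM). Irf8 was lower there without overlap (284 and 314 against 324 to 477 CPM). In older mice each of these genes overlapped. Both younger Hoil1-/- libraries are outside the sample list, and the share of all genes without overlap in the younger range alone was not counted.

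The interaction was also fitted with age. With age in the model 4 of 10 members lay under an unadjusted 0.05 with 10 libraries (6.79% of genes): Batf3 (1.26 ± 0.33), Adgre1 (1.21 ± 0.31), C1qa (0.95 ± 0.41) and Clec9a (-1.99 ± 0.54). With 12 libraries Adgre1 alone did (1.02 ± 0.32; 5.19% of genes), and the smallest adjusted p of a member by edgeR was 0.471 with 10 libraries and 0.928 with 12. Younger Hoil1+/+ ΔIEC and Hoil1-/- mice of each Il4ra genotype are 1 library each, so the interaction could not be read within the younger range. The older range held 1 Hoil1+/+ f/f library, so it gave no spread for that group. With 10 libraries the age term came from Hoil1+/+ libraries alone. Within f/f mice, age and 10 libraries put Batf3 at -0.45 ± 0.27, Adgre1 at -0.32 ± 0.26 and Zbtb46 at -0.55 ± 0.45. Within ΔIEC mice Batf3 was then at 0.82 ± 0.23, Adgre1 at 0.89 ± 0.22 and Clec9a at -1.15 ± 0.41.

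**Figure D4:**
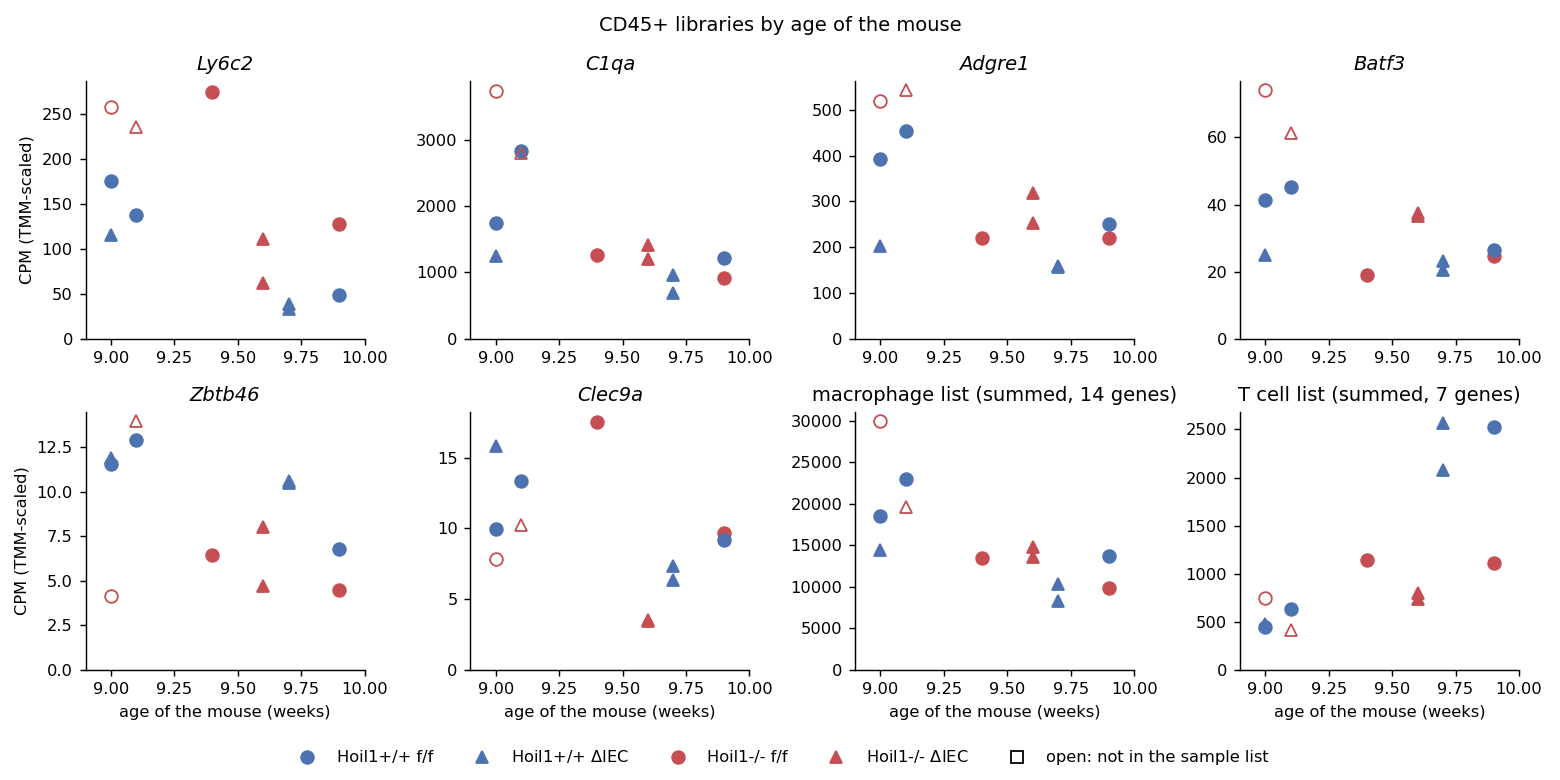
CPM of 6 identity genes and summed CPM of the macrophage and T cell lists in each of the 12 CD45+ libraries against the age of the mouse in weeks; blue is Hoil1+/+, red Hoil1-/-, circles f/f, triangles ΔIEC, and open symbols the 2 libraries outside the sample list. The highest values of C1qa, Adgre1 and the macrophage sum are at 9.0 to 9.1 weeks, the T cell sum is at 2076 to 2572 CPM in the 3 older Hoil1+/+ libraries, and Ly6c2 is higher in Hoil1-/- libraries in both age ranges.

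Across the 12 CD45+ libraries the members formed groups that partly crossed their assigned roles. The correlations below are of log2(CPM + 1), and the libraries share genotype groups, age ranges and composition, so no p is given. Adgre1 and C1qa went together (Pearson r = 0.94), and Csf1r followed both (0.73 and 0.77). Batf3, named as a cDC1 factor, followed Adgre1 (0.93) and C1qa (0.90) and not Xcr1 (0.02) or Clec9a (-0.18). In the 10 libraries of the sample list Batf3 was at 0.88 with Adgre1, 0.77 with C1qa and -0.15 with Xcr1. Xcr1, Clec9a and Flt3 formed the other group (0.62 to 0.68 between them), and Zbtb46 was nearest to Flt3 (0.60). Irf8 was nearest to Csf1r (0.63) and Clec9a (0.58), and Ly6c2 to C1qa (0.71) and Adgre1 (0.70). In the 10 libraries of the sample list Zbtb46 was at 0.37 with Flt3 and nearest to Irf8 (0.64), Irf8 was nearest to Csf1r (0.68) and then to Zbtb46, and Ly6c2 was nearest to Csf1r (0.58). Xcr1, Clec9a and Flt3 were at 0.68 to 0.79 between them there.

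**Figure D5:**
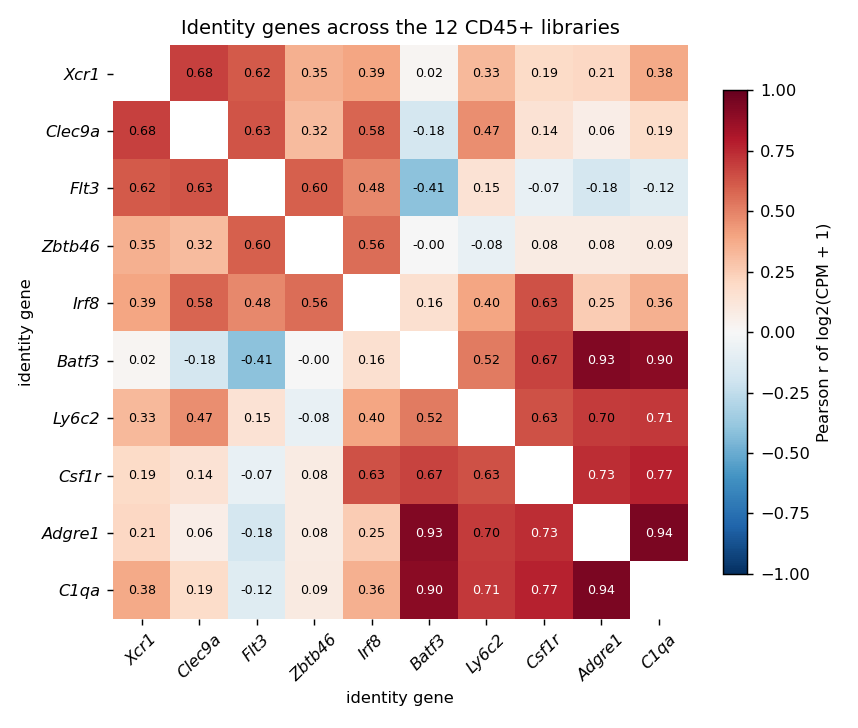
Pearson r of log2(CPM + 1) between each pair of identity genes across the 12 CD45+ libraries, from blue (-1) to red (1). Xcr1, Clec9a and Flt3 form one block, and Batf3 lies in the block of Adgre1 and C1qa.

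Relative to macrophage RNA within the same library, Xcr1 had 0.64 to 3.88 counts for each 100 counts of Csf1r, a ratio that does not depend on scaling. It was 3.41, 1.70 and 0.82 in Hoil1+/+ f/f, 2.24, 2.09 and 1.22 in Hoil1+/+ ΔIEC, 1.15, 1.19 and 3.88 in Hoil1-/- f/f and 0.64, 0.86 and 2.19 in Hoil1-/- ΔIEC libraries, so every genotype overlapped the others. Ly6c2 had 12.4, 5.43 and 12.4 counts for each 100 of Csf1r in Hoil1+/+ f/f and 5.13, 5.17 and 10.9 in Hoil1+/+ ΔIEC libraries. It had 19.9, 19.6 and 27.8 in Hoil1-/- f/f and 11.2, 6.01 and 23.1 in Hoil1-/- ΔIEC libraries. C1qa had 289 and 277 in the libraries outside the sample list and 256 in Hoil1+/+ f/f replicate 1, against 111 to 143 in the others. Zbtb46 had 14.1 to 78.1 counts for each 100 of Flt3.

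Genes most like 4 members were ranked by Pearson r over the 12 CD45+ libraries among 12740 genes with a mean of at least 1 CPM. Nearest to Xcr1 was Tlr3 (r = 0.92), the double-stranded RNA sensor of cDC1, then Haus7 (0.90), Ndufs1 (0.86), Tm9sf2 (0.86) and Gm10335 (0.85). Nearest to Flt3 were Stt3b (0.92), Scrn2 (0.89), Wdfy4 (0.89), Atg13 (0.89) and Mcm6 (0.89). Nearest to C1qa were Laptm4a (0.99), C1qc (0.99), the MHC class II gene H2-Eb1 (0.98), C1qb (0.98) and Aif1 (0.98). Nearest to Ly6c2 were no monocyte genes but Bst2 (0.97), Ly6e (0.95), Nedd8 (0.93), the immunoglobulin light chain segment Igkv8-19 (0.92) and Sun1 (0.92). The summed level of 7 plasma cell genes correlated with Ly6c2 at 0.62 and the T cell sum at -0.71. Neither was particular to Ly6c2. Among the other members the plasma cell sum ran from 0.24 (Batf3) to 0.64 (Clec9a). The T cell sum ran from -0.71 (Csf1r) and -0.69 (Adgre1) to -0.01 (Xcr1). Over the 10 libraries of the sample list 1 of the 5 genes nearest to Xcr1, 1 of those to Flt3, 3 of those to Ly6c2 and 2 of those to C1qa were again among the nearest 5.

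RefSeq promoter windows (GRCm38.p6) were held for 7 of the 10 members. They were searched, in the 250 bases before each start and on both strands, for GAGGAA, the core bound by ETS factors such as PU.1, which macrophages and dendritic cells depend on. It was found in a window of 2 of these 7, Batf3 and Ly6c2, and in 23.3% of the 32851 windows of the table. The count of members is by gene, and Irf8 and Ly6c2 have 2 windows each, while the share is by window. Ly6c1, the gene that was higher in CD45- cells, holds a match as well. The windows of Xcr1, Clec9a, Irf8, Zbtb46 and Flt3 do not hold these letters. The windows of Batf3, and of C1qb and C1qc, which are not among the 10 members, each hold 1 match. They are shown up to the first untranslated base of the gene annotated within the window, with the match in capitals, on either strand. The Batf3 window precedes a RefSeq start but lies inside the annotated span of the gene, which begins at 191097847.
Batf3, chr1:191098164-191098324, plus strand: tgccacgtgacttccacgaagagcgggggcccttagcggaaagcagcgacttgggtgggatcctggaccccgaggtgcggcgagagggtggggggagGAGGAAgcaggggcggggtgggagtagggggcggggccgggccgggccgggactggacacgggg
C1qb, chr4:136886201-136886450, minus strand: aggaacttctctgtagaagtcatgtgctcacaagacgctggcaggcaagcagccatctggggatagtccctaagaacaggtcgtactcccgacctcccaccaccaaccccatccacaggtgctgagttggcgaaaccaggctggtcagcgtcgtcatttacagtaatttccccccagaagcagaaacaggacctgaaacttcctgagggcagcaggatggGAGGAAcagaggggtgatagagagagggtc
C1qc, chr4:136893066-136893164, minus strand: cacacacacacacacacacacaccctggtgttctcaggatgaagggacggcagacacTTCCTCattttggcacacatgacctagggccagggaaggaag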

How the data were processed

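RNA of sorted CD45+ and CD45- ileal cells was sequenced as paired reads after poly-A selection. After trimming by cutadapt, the authors mapped the reads with STAR (mm10) and made counts per ENSEMBL gene with featureCounts. Versions and counting options are not given in the sources used here. The deposited table holds raw counts, not normalized, of 39056 genes in 24 libraries. Symbols came from GENCODE M21 by unversioned gene ID (38872 matched).

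Tests used edgeR 4.0.16 (R 4.3.3): TMM scaling, filterByExpr (minimum count 10, minimum total 15), a mean per genotype, quasi-likelihood, two-sided, adjusted over all genes at 0.05. Simulated counts with known changes tested the script. In them the averaged Hoil1 test with 10 libraries called 14 of 100 genes changed 2-fold and 78 of 100 changed 4-fold. Most changes of 2-fold were thus missed there. DESeq2 1.42.0 and the other alternatives are in the closing section; leaving out libraries and the age term were among them, the age term added after the data were seen. Replicates are separate samples by the labels, which do not say whether each is 1 mouse, so p-values measure the spread between samples. Replicate numbers follow deposit order and pair nothing. Members and lists were chosen with earlier results of these data known. Named were the members, Rbck1 and Ptprc, up to 3 of the most abundant further genes of each myeloid list (1 gene is not reported here), and the 5 genes most like Xcr1, Flt3, Ly6c2 and C1qa; Ly6c1, Cd3e and further macrophage and cDC2 genes were added after their values were seen. Plots used matplotlib 3.10.9.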

Additional observations from a re-analysis of the deposited data

Results flagged for a closer look

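Batf3 and Adgre1 stood out in the 10 libraries of the study's sample list. Every Hoil1-/- library lay below every Hoil1+/+ library in f/f mice and above every one in ΔIEC mice. Of all genes tested, 2.72% separated in opposite directions in this way. The left-out Hoil1-/- f/f library was at 74.1 CPM for Batf3 and 519 CPM for Adgre1, above every Hoil1+/+ f/f library. For Batf3 the difference between both Hoil1 effects was 1.45 ± 0.38 (log2, SE) and for Adgre1 1.42 ± 0.41, and neither passed adjustment by edgeR's quasi-likelihood test (adjusted p = 0.591 and 0.635). With 12 libraries the differences were 0.93 ± 0.64 for Batf3 and 1.30 ± 0.58 for Adgre1. The Hoil1+/+ mice were 9.1, 9.9 and 9.0 weeks old in f/f and 9.7, 9.7 and 9.0 weeks in ΔIEC libraries. All Hoil1-/- mice of the list were of the older age range, so an age term with 10 libraries came from Hoil1+/+ libraries alone. With age in the model and 10 libraries, Batf3 was at -0.45 ± 0.27 and Adgre1 at -0.32 ± 0.26 within f/f mice. Within ΔIEC mice they were at 0.82 ± 0.23 and 0.89 ± 0.22. Groups of 3 libraries are too small for a test of single outlying libraries.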

How the results depend on the processing

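All 10 calls between CD45+ and CD45- cells were kept when 1 library was left out and under every other setting run, except that DESeq2 gave no adjusted p for Batf3. No member passed adjustment in a Hoil1, Il4ra or interaction test by edgeR under any setting, and DESeq2 put 1 member past it for the interaction (Adgre1, log2 1.48, adjusted p = 0.0425), where edgeR put 0. Calls over all genes moved far more with the tool: for the averaged Hoil1 effect edgeR's quasi-likelihood test called 0 higher and 1 lower, the likelihood ratio test 78 and 25, DESeq2 74 and 52, no filter 5 and 1, and age in the model 2 and 26. Within f/f mice these were 0 and 0 by quasi-likelihood, 57 and 9 by likelihood ratio, 60 and 33 by DESeq2, 45 and 4 by the exact test and 2 and 1 without a filter, and within ΔIEC mice 0 and 0, 27 and 24, 67 and 92, and 23 and 17 by the first 4. For Il4ra they were 1 and 0, 133 and 68, and 194 and 147, and for the interaction 0 and 0, 23 and 45, and 81 and 79, by quasi-likelihood, likelihood ratio and DESeq2. Without 1 library, quasi-likelihood called up to 9 genes higher for Hoil1, 7 within f/f mice and 8 for Il4ra.

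Signs of uncalled members turned as follows, in log2, and the cause was not tested. For the averaged Hoil1 effect, all 12 libraries gave Batf3 0.52, Adgre1 0.46, Csf1r 0.051 and C1qa 0.46. Xist as a covariate gave Flt3 0.052, Adgre1 0.070 and Csf1r 0.033. DESeq2 gave Adgre1 0.0056 and its size factors in edgeR 0.0055. Age in the model gave Batf3 0.19, Irf8 0.021, Flt3 0.28, Adgre1 0.29, Csf1r 0.20 and C1qa 0.21 with 10 libraries, and Batf3 0.55, Adgre1 0.52, Csf1r 0.14 and C1qa 0.52 with 12. Within f/f mice, all libraries gave Xcr1 -0.090, Batf3 0.058 and C1qa 0.028, age gave Irf8 0.19, and age with all libraries Batf3 0.19, Adgre1 0.013 and C1qa 0.23. For Il4ra, all libraries gave Batf3 -0.26 and Irf8 0.011, Xist gave Irf8 0.29, Flt3 0.086 and Csf1r 0.13, age gave Irf8 0.10 and Csf1r 0.013, and age with all libraries Batf3 -0.0059 and Irf8 0.075. For the interaction, Xist gave Zbtb46 -0.13, age Zbtb46 -0.10 and all libraries Ly6c2 0.26. Leaving out 1 library in turn moved the averaged Hoil1 effect of Batf3 from -0.17 to 0.042, Flt3 from -0.70 to 0.20, Adgre1 from -0.12 to 0.081 and Csf1r from -0.25 to 0.037. Within f/f mice it moved Xcr1 from -1.45 to 0.82, Clec9a from -0.13 to 0.69, Flt3 from -0.63 to 1.16 and Irf8 from -0.81 to 0.0032, and within ΔIEC mice Ly6c2 from -0.030 to 1.27. It moved the Il4ra effect of Batf3 from -0.055 to 0.16, Irf8 from -0.20 to 0.23, Zbtb46 from -0.043 to 0.35, Flt3 from -0.74 to 0.15 and Csf1r from -0.20 to 0.083, and the interaction of Xcr1 from -1.75 to 0.52, Irf8 from -0.47 to 0.34, Zbtb46 from -0.33 to 0.45 and Ly6c2 from -0.77 to 0.52. No paired analysis was possible because replicate numbers only follow deposit order. With log2(CPM + 0.1) instead of log2(CPM + 1), 3 of the 5 genes nearest to Flt3 remained and all 5 of those of Xcr1, Ly6c2 and C1qa. Lowly expressed members rest on few counts, and each Hoil1-/- group of the sample list on 2 libraries.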
